A study of Mus musculus with 20 samples.

Results

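The genes of 6 CXC chemokines and 1 receptor were described in mouse diaphragm RNA: Cxcl1, Cxcl2, Cxcl3, Cxcl5, Ppbp, Pf4 and Cxcr2, which are 7 of the 32053 genes named on the array. They were selected on their measured values in all 5 groups of this experiment, so their levels and changes are given below as a description, with no p-values, and each gene was read by 1 probe. Female C57Bl/6 mice were injected at 8 weeks of age into the pleural cavity, the space around the lungs that the diaphragm closes off below, and the diaphragm was taken 12 weeks later. Control mice received 100 µL of 0.5% BSA (bovine serum albumin) in saline. The other groups received, in the same vehicle, 25 µg of shortened amosite asbestos (SFA, 3.1% of fibres at least 5 µm long), 25 µg of long amosite asbestos (LFA, 100% of fibres at least 5 µm long), 5 µg of short carbon nanotubes (NTS) or 5 µg of long carbon nanotubes (NTL). Each of the 5 groups had 4 mice and each mouse 1 array. Per the study's methods both amosite samples came from 1 batch, the short one made by milling, whereas the short nanotubes were a commercial product and the long ones came from an academic laboratory. Length and source therefore cannot be told apart in the nanotube comparison. The mass of fibre differed between asbestos and nanotubes, so LFA and NTL are set side by side rather than at a matched dose.

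Each array held 59305 noncontrol spots, of which 53 to 68.1% were well above background, the scanner software's mark for a spot brighter than its surroundings. Signal is given throughout as log2 of the processed intensity minus the log2 of the array's 75th percentile, so 0 is the brightness of the spot at that percentile and a difference of 1 is a 2-fold difference. The arrays correlated with each other at r = 0.909 to 0.984 over all probes. Skeletal muscle markers were bright in every group, as the tissue label says (summed linear signal of 12 genes relative to the 75th percentile, 2179 to 6565). Liver markers differed by array rather than by group, with a summed signal of 4.9 to 4450 over 8 genes, and were highest in NTS replicates 3 and 4. The RNA came from whole diaphragm, so fewer cells of a type and less RNA per cell cannot be told apart in any value below.

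CXC chemokines are small secreted proteins that guide leukocytes along a gradient. Cxcl1, Cxcl2, Cxcl3, Cxcl5 and the processed product of Ppbp are ligands of CXCR2, the receptor through which mouse neutrophils leave the blood and enter inflamed tissue. They are made by epithelial, mesothelial and stromal cells and by macrophages after stimulation by IL-1, TNF, IL-17 or microbial products, largely through NF-kappaB. Ppbp and Pf4 are stored in platelet granules and are classical products of megakaryocytes. Pf4 lacks the motif that CXCR2 binding needs, and tissue macrophages also transcribe it.

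The promoters of these genes are shown first because the choice of genes did not use them. RefSeq promoter entries (GRCm38.p6) were found for 6 of the 7 genes. None was found for Cxcl5, the gene with the largest measured change, so its motifs are not known here. The 250 bases before each start were searched on both strands for the NF-kappaB consensus and for ATAAAA, the core of a TATA box, and the 120 bases next to the start are printed 5′ to 3′ with the matches to either in capitals. All lie on the plus strand.
Cxcl1 (chr5:90891125-90891244): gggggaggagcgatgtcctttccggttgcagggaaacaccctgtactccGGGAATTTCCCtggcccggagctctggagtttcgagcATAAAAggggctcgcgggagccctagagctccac
Cxcl2 (chr5:90903779-90903898): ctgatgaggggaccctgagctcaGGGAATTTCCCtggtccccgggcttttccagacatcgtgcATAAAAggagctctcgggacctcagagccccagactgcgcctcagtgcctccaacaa
Cxcl3 (chr5:90785981-90786100): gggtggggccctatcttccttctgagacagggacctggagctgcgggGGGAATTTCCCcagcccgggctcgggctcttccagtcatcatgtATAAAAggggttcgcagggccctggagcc
Ppbp (chr5:90768398-90768517): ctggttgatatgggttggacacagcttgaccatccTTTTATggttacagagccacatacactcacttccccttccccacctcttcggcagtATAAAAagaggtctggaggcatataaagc
Pf4 (chr5:90772315-90772434): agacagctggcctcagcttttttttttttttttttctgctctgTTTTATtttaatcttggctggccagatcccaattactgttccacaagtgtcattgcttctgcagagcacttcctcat
Cxcr2 (chr1:74153874-74153993): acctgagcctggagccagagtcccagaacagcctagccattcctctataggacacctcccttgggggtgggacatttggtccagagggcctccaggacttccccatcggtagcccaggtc
Cxcl1, Cxcl2 and Cxcl3 each held an NF-kappaB match on both strands, 2 overlapping matches that share all but 1 base, which began 71, 97 and 73 bases before the start. Each also held 1 ATAAAA match on the plus strand, at 34, 57 and 29 bases. Ppbp had no NF-kappaB match and 2 ATAAAA matches, one on each strand. Pf4 had 1 ATAAAA match, on the minus strand, and Cxcr2 held neither motif. Over all 32851 promoter entries, 3.9% held an NF-kappaB match and 17% an ATAAAA match in the same 250 bases. Cxcl1, Cxcl2 and Cxcl3 are close paralogs, so their shared motif is not an independent observation in each, and a match in the letters does not show that a factor binds there.

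Cxcl5, whose product (LIX in mice) is made by epithelial and other structural cells as well as by myeloid cells, had the largest measured change of the 7 genes in both long-fibre groups. Cxcl3, given below, was not detected in control, so the order of these changes is not established. The log2 signal of Cxcl5 in control replicates 1 to 4 was −5.99, −2.79, −4.22 and −4.53. In LFA it was 0.74, 0.76, 0.99 and 2.73, and in NTL 0.14, 1.56, 1.53 and 1.13. All 8 long-fibre arrays were therefore brighter than every control array, and the medians of the processed intensity were 30.4 in control, 1530 in LFA and 1620 in NTL. The change against control was 5.69 ± 0.73 (SE, n = 4 per group) in LFA, a 51.5-fold difference, and 5.47 ± 0.73 in NTL, a 44.3-fold difference. In SFA the values were −2.29, −2.94, −4.43 and −3.85, which overlapped the control arrays (1.005 ± 0.73). In NTS they were −5.63, −4.70, −6.99 and −3.58, with 1 of 4 arrays well above background (−0.84 ± 0.73).

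Cxcl1, also known as KC, was well above background on all 20 arrays. It was −3.02, −2.05, −2.98 and −2.90 in control, −0.76, −0.75, −1.18 and 0.44 in LFA and −1.34, 0.41, −1.01 and −0.54 in NTL. No LFA or NTL array overlapped the control range. The change was 2.17 ± 0.51 in LFA and 2.11 ± 0.51 in NTL (4.51-fold and 4.33-fold). SFA arrays, at −2.04, −2.42, −2.47 and −2.71, differed from control by 0.32 ± 0.51. NTS was the most uneven group, at −3.55, −3.40, −2.38 and −0.92 (SD 1.21). Its highest array, NTS replicate 4, reached the range of the long-fibre arrays and was one of the pair with the highest liver marker signal (3881 in replicate 4 and 4450 in replicate 3), whose part in this value was not tested.

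Cxcl2, which encodes macrophage inflammatory protein 2, and its paralog Cxcl3 were dim or undetected outside the long-fibre groups. Each was well above background on 7 of 20 arrays, all of them LFA or NTL, and so passed the filter on dim probes only through the groups where it was high. Cxcl2 read −3.99, −4.46, −6.17 and −2.78 in LFA and −4.79, −4.12, −2.75 and −4.0 in NTL, against −6.08 to −7.29 in control, where no array was well above background. LFA replicate 3, at −6.17, was not well above background and lay inside the control range, while every NTL array lay above it. The control signal was not detected, so a floor estimate was computed. In it each control array took its dimmest signal marked well above background, or the probe's own signal if higher. By this estimate the LFA mean of Cxcl2 was 2.71-fold and the NTL mean 3.65-fold higher than control. The measured log2 differences were 2.29 ± 0.63 and 2.72 ± 0.63. The floor estimate is not a strict minimum. Undetected spots can lie above the floor, as Cxcl3 did on NTL replicate 4 (−5.36 against −6.89). LFA replicate 3 entered the Cxcl2 mean at its measured value.

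Cxcl3 read −3.40, −3.44, −4.47 and −1.20 in LFA and −4.39, −2.55, −1.90 and −5.36 in NTL, the last of these not well above background. Its control arrays lay between −7.47 and −6.40, below every long-fibre array. By the floor estimate, Cxcl3 was 7.02-fold higher with long asbestos and 5.24-fold higher with long nanotubes, with measured log2 differences of 3.91 ± 0.66 and 3.49 ± 0.66. In the short-fibre groups none of the 8 arrays was well above background for either gene, so no change from control is given. Limma's normexp background correction with an offset of 50, which adds 50 to every corrected signal, lowered these changes. The Cxcl2 change became 0.16 in LFA and 0.24 in NTL, and the Cxcl3 change 0.84 and 0.68, while the Cxcl5 change was 3.84 and 3.61. For comparison, the median processed intensity of Cxcl3 was 3.76 in control and 85.4 in LFA.

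**Figure D1:**
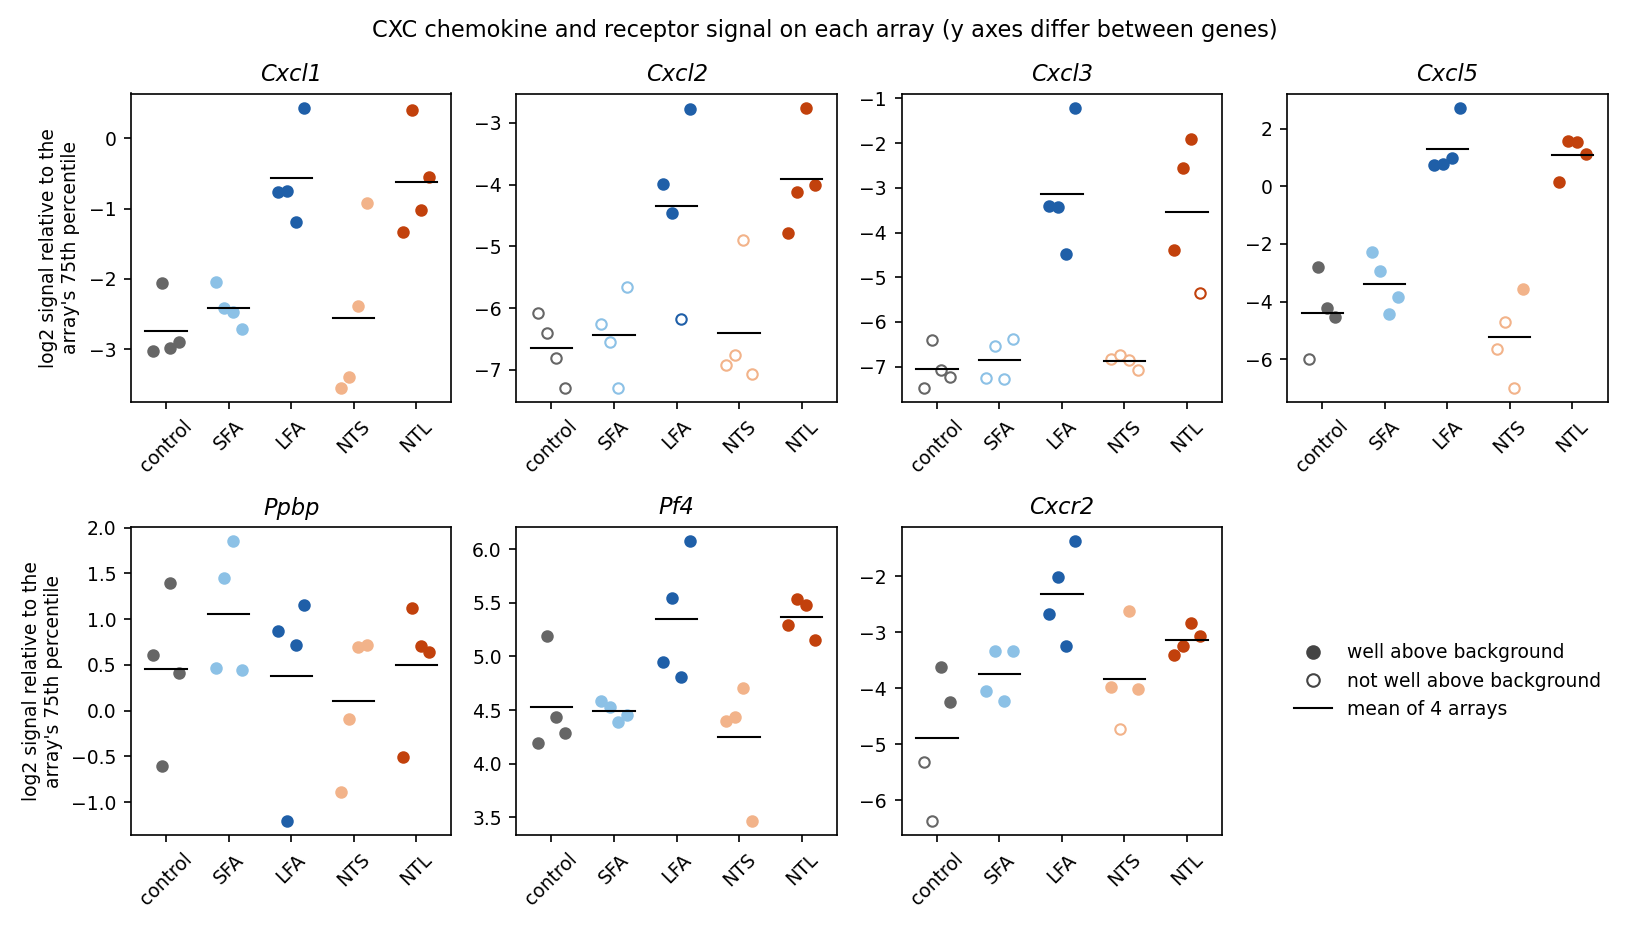
Log2 signal relative to the array's 75th percentile (y axis, a separate scale for each gene) of the 7 genes on each of 4 arrays in control, SFA, LFA, NTS and NTL, with filled points well above background, open points not, and lines at group means. For Cxcl1, Cxcl3 and Cxcl5 every LFA and NTL array sits above every control array, whereas Ppbp arrays of all groups overlap.

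Ppbp, the precursor of the platelet chemokine CXCL7, did not follow the other CXCR2 ligands. It was well above background on all 20 arrays and read 0.61, −0.60, 1.39 and 0.42 in control, 0.87, −1.21, 0.72 and 1.16 in LFA and −0.50, 1.13, 0.71 and 0.64 in NTL. The groups overlapped completely, and the differences from control were −0.07 ± 0.55 in LFA, 0.04 ± 0.55 in NTL, 0.60 ± 0.55 in SFA and −0.34 ± 0.55 in NTS. LFA replicate 2 had the lowest Ppbp signal of all 20 arrays. The LFA difference ranged from −0.42 without control replicate 2 to 0.46 without LFA replicate 2.

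Pf4, which encodes platelet factor 4, was bright on every array. It read 4.19, 5.19, 4.44 and 4.29 in control, 4.95, 5.54, 4.81 and 6.07 in LFA and 5.29, 5.54, 5.48 and 5.16 in NTL. Control replicate 2, at 5.19, lay inside both long-fibre ranges, and the other control arrays lay below every long-fibre array. That array was dim, with a 75th percentile of 294 against 549 to 648 on the other control arrays. Its processed intensity for Pf4, before scaling, was 10720, against 10020 to 14050 on those. The difference from control was 0.82 ± 0.31 in LFA and 0.84 ± 0.31 in NTL, less than 2-fold, and −0.04 ± 0.31 in SFA and −0.27 ± 0.31 in NTS. With quantile normalization in place of the 75th percentile the NTL difference was 1.26. Under that scaling the median change of all probes was −0.08 in LFA and −0.09 in NTL, where it was −0.28 and −0.25 with the 75th percentile.

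Cxcr2, the receptor, was dim in control, with 2 of 4 arrays well above background (−5.31, −6.38, −3.62 and −4.24). It read −2.67, −2.01, −3.24 and −1.37 in LFA and −3.41, −3.24, −2.84 and −3.07 in NTL, so all 8 long-fibre arrays were above the highest control array. The change was 2.57 ± 0.54 in LFA and 1.75 ± 0.54 in NTL. Cxcr2 was also the gene with the highest mean differences in the short-fibre groups, at 1.15 ± 0.54 in SFA and 1.05 ± 0.54 in NTS, although those arrays (−3.34 to −4.24 in SFA, −2.61 to −4.74 in NTS) overlapped the control range. With normexp correction the LFA change was 0.79 and the NTL change 0.25.

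**Figure D2:**
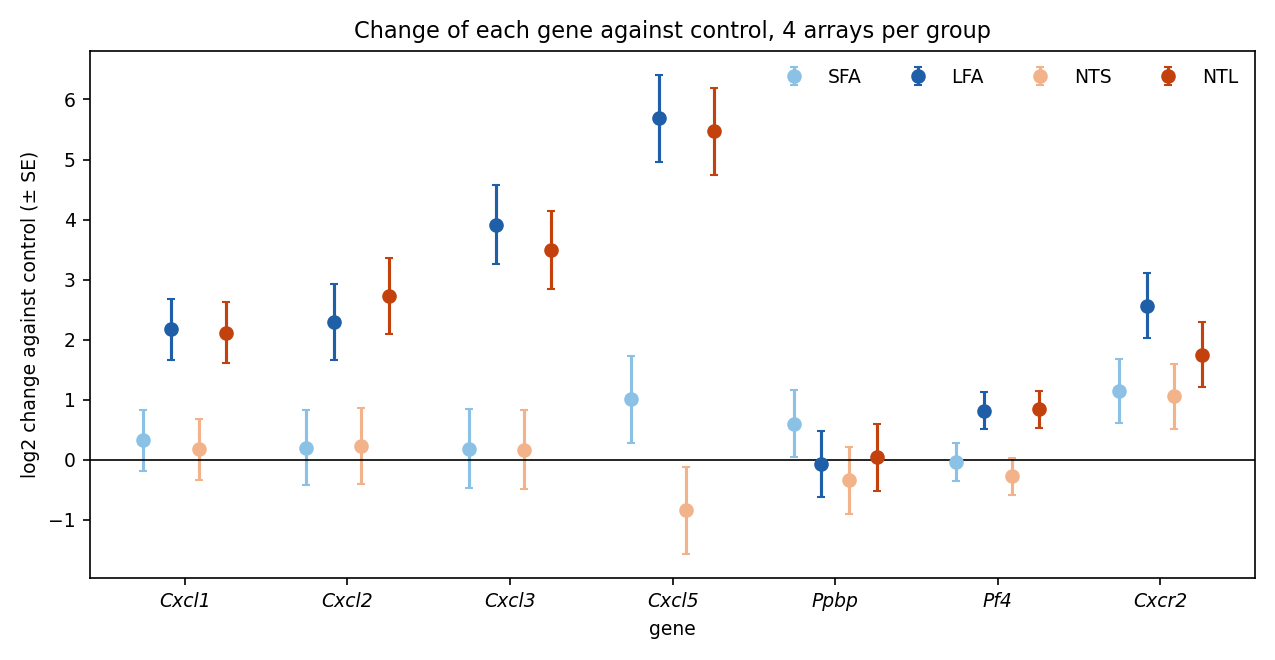
Log2 change of each of the 7 genes (x axis) against control in SFA, LFA, NTS and NTL (y axis, mean difference with bars of ± 1 SE from limma, 4 arrays per group). The LFA and NTL changes of Cxcl5 lie near 5.69 and 5.47, those of Ppbp near 0, and the short-fibre changes between −0.84 and 1.15, while for Cxcl2 and Cxcl3 the control arrays were not well above background.

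For comparison with the whole array, a probe was called when limma gave it a change of 2-fold or more and an adjusted p under 0.05 (Benjamini-Hochberg). Of the 7 genes, 5 were called higher in LFA than in control (Cxcl1, Cxcl2, Cxcl3, Cxcl5 and Cxcr2), where 2.22% of 36931 tested probes were. In NTL 4 were called higher (the same 4 chemokines without Cxcr2), against 3.63% of probes. None of the 7 was called in SFA or NTS, where limma called 0% of probes (843 and 1289 probes at an unadjusted p under 0.05). By overlap alone, 4 of the 7 genes had every LFA array above every control array (4.61% of probes) and 5 had every NTL array above (6.35%), and none did in SFA (0.560%) or NTS (0.623%). Since the genes were chosen with these values known, nothing is read from the size of their counts against those shares. Cxcl2 and Cxcl3, called in both long-fibre groups, passed the filter on dim probes only through those groups. Nothing is read from their calls either. The LFA count fell to 3 without control replicate 1, 3 or 4 and to 2 without LFA replicate 2 or 4, and with normexp correction it was 2 in each long-fibre group. With Cxcl2 and Cxcl3 set at their floor estimates, the median change of the 7 genes was 2.17 in LFA and 1.87 in NTL, against −0.28 and −0.25 for all probes.

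The design crosses 2 materials with 2 lengths, so the long and short samples of a material can be compared at 1 dose. In the nanotube comparison length is largely confounded with slide and scan day. NTL replicates 2, 3 and 4 lay on slide 3, scanned on day 2. The NTS arrays lay on slides 1 and 2, scanned on day 1, with NTL replicate 1 on slide 2. LFA exceeded SFA by 4.68 ± 0.73 for Cxcl5, 1.85 ± 0.51 for Cxcl1 and 1.42 ± 0.54 for Cxcr2. NTL exceeded NTS by 6.31 ± 0.73 for Cxcl5 and 1.94 ± 0.51 for Cxcl1, but by 0.69 ± 0.54 for Cxcr2. Cxcl2 and Cxcl3 were not well above background on any short-fibre array, so only floor estimates are given, which are not strict minima. By these, LFA was 2.74-fold higher than SFA for Cxcl2 and 7.14-fold higher for Cxcl3. NTL was 3.77-fold and 6.35-fold higher than NTS. Pf4 was higher in the long-fibre group of both materials, by 0.86 ± 0.31 and 1.11 ± 0.31, with no overlap between the arrays. Ppbp differed by −0.67 ± 0.55 for asbestos and 0.39 ± 0.55 for nanotubes, with overlapping arrays in both.

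Of the 7 genes, 2 were called higher in LFA than in SFA (Cxcl3 and Cxcl5), against 1.03% of probes, and 5 had every LFA array above every SFA array (3.16%). In NTL against NTS 5 were called higher (Cxcl1, Cxcl2, Cxcl3, Cxcl5 and Pf4), against 4.89% of probes, and 4 had every array above (7.61%). Cxcl1 was the exception to the latter because of NTS replicate 4. Here too Cxcl2 and Cxcl3 passed the filter on dim probes only through the long-fibre groups, so nothing is read from their calls. The NTL against NTS count fell to 2 without NTS replicate 2, to 3 without NTL replicate 2, 3 or 4, and to 1 with slide as a block. The long minus short difference in nanotubes less that in asbestos was 1.63 ± 1.03 for Cxcl5, 1.06 ± 0.78 for Ppbp, 0.09 ± 0.72 for Cxcl1, 0.26 ± 0.44 for Pf4 and −0.73 ± 0.76 for Cxcr2, each less than 2 times its SE.

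Between LFA and NTL no member was called. The differences NTL minus LFA were −0.06 ± 0.51 for Cxcl1, 0.43 ± 0.63 for Cxcl2, −0.42 ± 0.66 for Cxcl3, −0.22 ± 0.73 for Cxcl5, 0.11 ± 0.55 for Ppbp, 0.02 ± 0.31 for Pf4 and −0.82 ± 0.54 for Cxcr2. Over all probes limma called 0% in this comparison (572 probes at an unadjusted p under 0.05). These errors leave room for differences of the size of the SE or more, so similar responses are not shown by the missing calls, and the doses differed.

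The arrays within a group differed among themselves in a partly shared way. LFA replicate 4 was the highest LFA array for all 7 genes, and LFA replicate 3 the lowest for 5 of them. In NTL, replicate 1 was the lowest for 5 genes, and the highest was replicate 2 for 4 genes and replicate 3 for 3. SFA replicate 3 was the lowest SFA array for 5 genes. In control, replicate 1 was the lowest for 4 and replicate 2 the highest for 4, while no NTS array was highest or lowest for more than 3. Members of the set are therefore not independent readings of an animal.

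The 20 arrays lay on 3 slides, each with arrays of at least 1 long-fibre group and of control. Within slides 1, 2 and 3, LFA minus control was 2.52, 1.78 and 2.23 for Cxcl1, 2.81, 2.24 and 2.34 for Cxcl2, 4.38, 3.54 and 3.64 for Cxcl3 and 6.39, 5.13 and 4.98 for Cxcl5. NTL minus control, on slides 2 and 3, was 1.20 and 2.59 for Cxcl1, 1.45 and 3.17 for Cxcl2, 2.54 and 3.81 for Cxcl3 and 4.53 and 5.62 for Cxcl5. The 4 chemokines were thus higher with long fibres within every slide that allowed the comparison. Cxcr2 was higher by 1.93, 3.18 and 1.61 in LFA and by 2.44 and 0.57 in NTL. With short fibres, Cxcl1 differed by 0.305 and 0.38 in SFA (slides 2 and 3) and by 1.25 and −0.94 in NTS (slides 1 and 2). On the same slides Cxcl5 differed by 1.78 and 0.08 in SFA and by −0.76 and −0.77 in NTS. The short-fibre values of Cxcr2 were 2.15 and −0.17 in SFA and 0.92 and 1.49 in NTS. Ppbp gave 0.52, 0.86 and −2.60 in LFA, the last of these from LFA replicate 2. Each of these within-slide values rests on 1 to 3 arrays of the fibre group, and those of Cxcl2 and Cxcl3 are measured against control arrays not well above background.

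The 6 chemokine probes lie together on chromosome 5, within 144.1 kb (NCBI37, from the array annotation). In order they are Cxcl5 (91190490-91190549), Ppbp (91198970-91199029), Pf4 (91202275-91202334), Cxcl3 (91216694-91216753), Cxcl1 (91321845-91321904) and Cxcl2 (91334534-91334593). The Cxcr2 probe is on chromosome 1 (74206886-74206945). The changes did not follow the order along the chromosome. Cxcl5 and Cxcl3, with the largest measured changes, flank Ppbp and Pf4, with the smallest, and Ppbp lies 8.5 kb from Cxcl5. The same stretch holds 2 further probes, for Cxcl15, a lung and endometrial chemokine that was not well above background on any of the 20 arrays, and for the transcript AK143337, detected on 2.

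**Figure D3:**
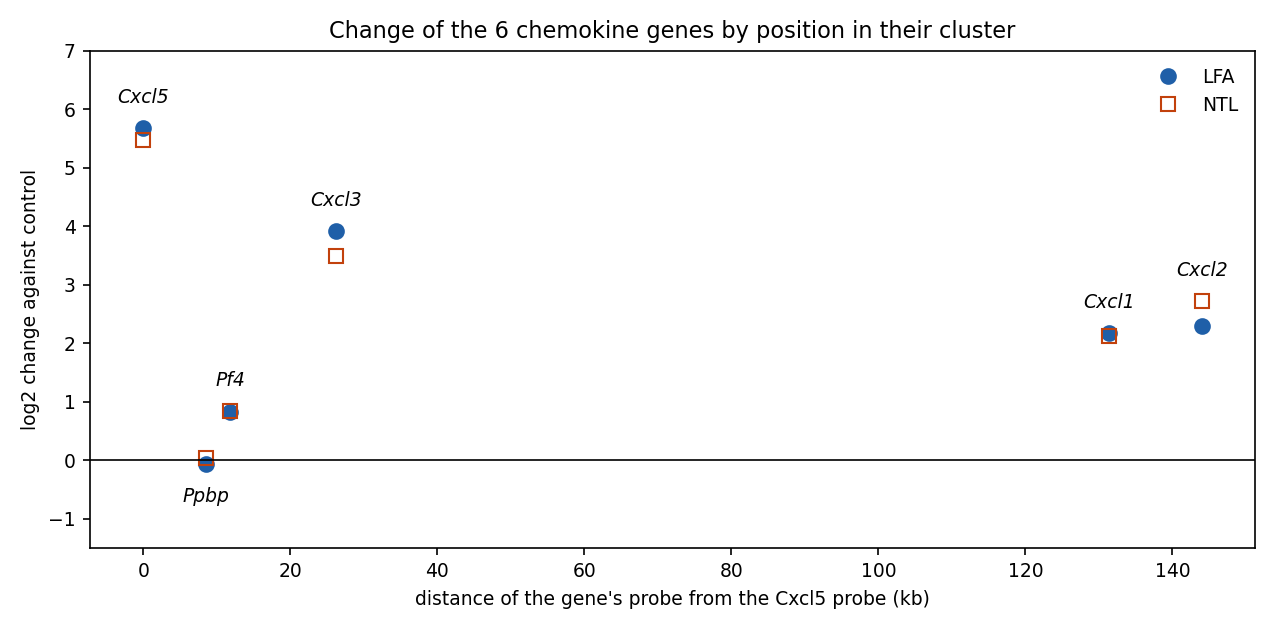
Log2 change against control in LFA (filled circles) and NTL (open squares) on the y axis, against the distance of each gene's probe from the Cxcl5 probe in kb on the x axis, for the 6 chemokine genes. Ppbp at 8.5 kb and Pf4 at 11.8 kb show the smallest changes and sit between Cxcl5 at 0 and Cxcl3 at 26.2 kb.

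Genes whose profile was nearest to each member were ranked over 23936 genes by the root mean square difference of their log2 profiles over the 20 arrays, after centring each on the control mean. Cxcl1 lay nearest to Cd300ld (0.40), Mrc1 (0.41) and Emr1 (0.43), the latter 2 encoding the macrophage mannose receptor and F4/80. Cxcl2 lay nearest to Cd14 (0.63), the LPS co-receptor, Ccl9 (0.65) and Cd84 (0.66). Cxcl3 lay nearest to the myeloid C-type lectin Clec4d (0.71), Tacr1 (0.73) and Clec4e (0.78). Cxcl5 lay nearest to Olr1 (1.13), a scavenger receptor for oxidised LDL, Fam162b (1.19) and the transcript ENSMUST00000103392 (1.22).

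Pf4 lay nearest to Mgp (0.24), Rgs10 (0.25) and Mdk (0.26), and Cxcr2 to Zmynd15 (0.65), Tmem176a (0.68) and Ccl9 (0.68). The nearest profiles of Ppbp were of another kind, Gp9 (0.53) and Treml1 (0.56), both platelet membrane proteins, then AI661384 (0.57). Likeness over the same 20 arrays includes whatever the arrays share, such as the amount of a cell type in the sample, and Cxcl1 and Ppbp differed from each other by 1.60 on this scale.

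Among the cytokines, receptors and NF-kappaB components that induce these chemokines, 18 of 23 listed genes were tested. Of these, 3 were called higher in LFA and 4 in NTL, with none lower. Of all probes, 2.22% and 3.63% were called higher. Il1b, which encodes interleukin-1β, rose by 3.74 ± 0.72 in LFA (limma adjusted p = 0.00825) and 3.38 ± 0.72 in NTL (limma adjusted p = 0.00796). Its receptor Il1r1 rose by 2.41 ± 0.42 and 2.62 ± 0.42 (limma adjusted p = 0.00436 and 0.00105), and Tlr2, a receptor for bacterial lipoproteins, by 1.56 ± 0.37 and 1.51 ± 0.37 (limma adjusted p = 0.0266 and 0.019). Tnf rose in NTL by 1.49 ± 0.44 (limma adjusted p = 0.0444) and differed by 1.04 ± 0.44 in LFA (limma adjusted p = 0.163). Il17a was not well above background on any array and Il1a on 3 of 20, so neither was tested. The median change of the tested genes was 0.52 in LFA and 0.67 in NTL, against −0.28 and −0.25 for all probes. The NTL count was 2 without control replicate 1, control replicate 4 or NTL replicate 2, and 2 with slide as a block.

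Of genes that act downstream of CXCR2 or in neutrophil adhesion, 21 of 22 were tested, and 8 were called higher in LFA and 11 in NTL, where 2.22% and 3.63% of all probes were. Itgb2, the shared β chain of the leukocyte integrins, rose by 1.92 ± 0.33 in LFA (limma adjusted p = 0.00381) and 2.39 ± 0.33 in NTL (limma adjusted p = 0.000272). Fgr, a Src family kinase of myeloid cells, rose by 1.86 ± 0.39 and 2.06 ± 0.39 (limma adjusted p = 0.0135 and 0.00344). Pik3cg, the catalytic subunit of PI3Kγ, rose by 1.78 ± 0.43 and 2.24 ± 0.43 (limma adjusted p = 0.029 and 0.00423). Selp, the P-selectin of platelets and endothelium, rose by 1.57 ± 0.27 and 1.54 ± 0.27 (limma adjusted p = 0.00386 and 0.00192). These genes are expressed by macrophages and other leukocytes as well as by neutrophils, apart from Selp. The median change was 1.07 in LFA and 1.28 in NTL. The LFA count was 4 without control replicate 1, 3 without control replicate 4 or LFA replicate 4, and 2 without LFA replicate 2. It was 1 when only the groups compared were fitted and 5 with no filter or with the replicate block, and the NTL count was 6 with slide or scan day as a block.

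Of 16 other CXC chemokines and receptors listed, 15 were tested. In LFA 1 was called higher and in NTL 3, where 2.22% and 3.63% of all probes were. The median change of the list was 0.67 in LFA and 0.92 in NTL, against −0.28 and −0.25 for all probes. Cxcl13, which attracts B cells through CXCR5, rose by 1.94 ± 0.50 in LFA (limma adjusted p = 0.0355) and 2.05 ± 0.50 in NTL (limma adjusted p = 0.0172). Of the CXCR3 ligands induced by interferon, Cxcl10 rose in NTL by 1.99 ± 0.52 (limma adjusted p = 0.0247) and differed by 1.85 ± 0.52 in LFA (limma adjusted p = 0.0503), while Cxcl9 differed by 0.60 ± 0.57 and −0.23 ± 0.57 (limma adjusted p = 0.538 and 0.851). The remaining NTL call was Cxcl16, a transmembrane chemokine and ligand of CXCR6 (1.28 ± 0.30, limma adjusted p = 0.0137). Cxcl12, the homeostatic ligand of CXCR4, differed by −0.26 ± 0.22 and −0.40 ± 0.22 (limma adjusted p = 0.486 and 0.288). Cxcr1, the other receptor for some of these ligands, was well above background on 4 of 20 arrays, 1 in LFA and 3 in NTL, and was not called. The LFA count was 0 without control replicate 1 or 4 or LFA replicate 2 or 4, and 2 without control replicate 2 or 3 or NTS replicate 2 or 4, and the NTL count was 1 without control replicate 4 or NTL replicate 4.

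Neutrophil transcripts were set beside the chemokines because neutrophils are the cells that CXCR2 ligands attract. All 20 neutrophil markers were tested. Against 2.22% of all probes in LFA and 3.63% in NTL, the same 4 markers were called higher in both groups. These were Padi4, Fpr1, Il1r2 and Stfa2l1, a histone citrullinating enzyme, the formyl peptide receptor, the decoy interleukin-1 receptor and a stefin, of which at least Fpr1 and Il1r2 are also made by monocytes and macrophages. Padi4 rose by 3.28 ± 0.31 in LFA and 3.18 ± 0.31 in NTL (limma adjusted p = 3.15e-05 and 2.45e-05) and Fpr1 by 3.57 ± 0.60 and 2.83 ± 0.60 (limma adjusted p = 0.00371 and 0.00806). Il1r2 rose by 2.54 ± 0.66 and 2.82 ± 0.66 (limma adjusted p = 0.0377 and 0.0145). Stfa2l1 measured 2.04 ± 0.48 higher in LFA and 2.01 ± 0.48 higher in NTL (limma adjusted p = 0.0247 and 0.0159). No control array was well above background for Stfa2l1, so these changes are measured against undetected signal.

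The defining neutrophil genes gave smaller values that were not called. Ly6g, the surface marker of mouse granulocytes, differed by 0.22 ± 0.37 in LFA and 0.77 ± 0.37 in NTL (limma adjusted p = 0.735 and 0.221). S100a8 and S100a9, the calprotectin subunits, differed by 1.02 ± 0.75 and 0.89 ± 0.69 in LFA and by 0.06 ± 0.75 and −0.30 ± 0.69 in NTL (limma adjusted p = 0.421, 0.447, 0.975 and 0.846). The mean log2 signal of the 20 markers was −1.51 to 0.45 on control arrays, −0.17 to 1.08 in LFA and −0.51 to 0.14 in NTL, so both long-fibre groups overlapped control. In NTS it was −1.57 to −0.82, below every LFA and NTL array, and in SFA −1.78 to 0.08. The median change from control was 0.73 in LFA and 0.13 in NTL. Against the short fibres it was 1.58 in LFA (2 of 20 called higher, Padi4 and Fpr1, against 1.03% of probes) and 0.79 in NTL (2 of 20, Padi4 and Il1r2, against 4.89%). The LFA count was 2 without control replicate 1 or 4 or LFA replicate 2 or 4.

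Macrophage markers were also higher in both long-fibre groups, and their order among arrays partly matched that of the 7 genes. Their mean log2 signal was highest on LFA replicate 2, where the 7 genes were highest on LFA replicate 4. In NTL it was highest on replicate 4, where the 7 genes were highest on replicate 2 or 3. The NTL means spanned only 2.90 to 3.04, and the summed signal in NTL was highest on replicate 3 (387). The lowest macrophage means lay on LFA replicate 3 and NTL replicate 1. Each was also the lowest array of its group for 5 of the 7 genes. Of 17 tested, 13 were called higher in LFA and 14 in NTL, with median changes of 1.89 and 2.25, where 2.22% and 3.63% of all probes were called higher. The LFA count was 6 when only the groups compared were fitted, and the NTL count 9 by the methods' test. Marco, a scavenger receptor, rose by 3.92 ± 0.46 and 3.56 ± 0.46 (limma adjusted p = 0.000176 and 0.000202), Msr1 by 3.14 ± 0.49 and 3.01 ± 0.49 (limma adjusted p = 0.00184 and 0.00121), and Cd68, the lysosomal marker, by 1.95 ± 0.34 and 2.38 ± 0.34 (limma adjusted p = 0.00443 and 0.000392). Fcgr1 rose by 2.59 ± 0.52 and 2.84 ± 0.52 (limma adjusted p = 0.0104 and 0.00269) and Cd14 by 2.29 ± 0.32 and 2.36 ± 0.32 (limma adjusted p = 0.000742 and 0.000258). The summed signal of the list was 61.9 to 97.0 in control, 68.8 to 97.7 in SFA, 64.7 to 92.0 in NTS, 233 to 359 in LFA and 295 to 387 in NTL. No long-fibre array overlapped any other array on this measure, and its part in the chemokine values was not tested.

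**Figure D4:**
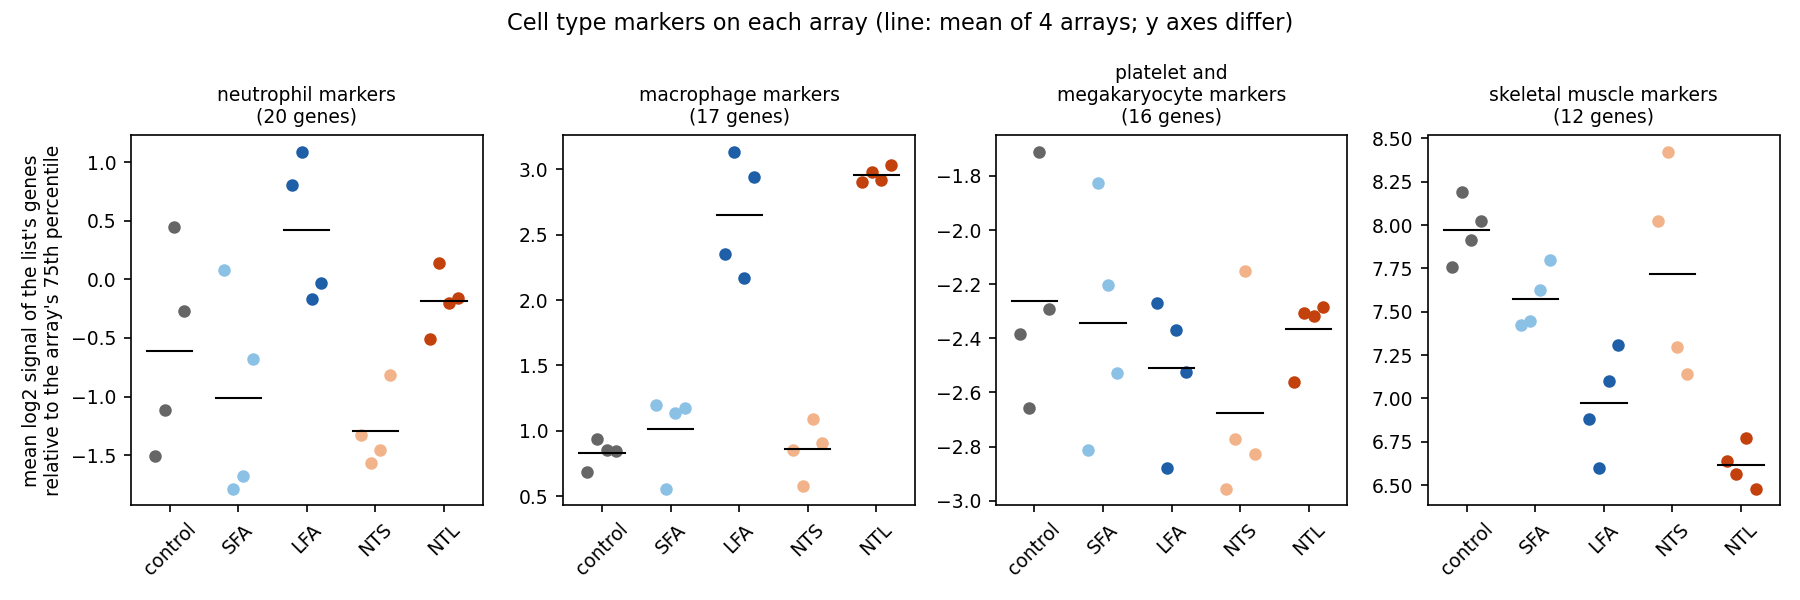
Mean log2 signal relative to the array's 75th percentile (y axis, separate scales) of 20 neutrophil, 17 macrophage, 16 platelet and megakaryocyte and 12 skeletal muscle marker genes on each of 4 arrays per group, with lines at group means. Macrophage markers separate LFA and NTL (2.17 to 3.13) from the other groups (0.56 to 1.20), muscle markers lie lower in LFA and NTL than in control, and the neutrophil and platelet markers of LFA and NTL overlap those of control.

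Most platelet markers were not called. Of 17 listed genes 16 were tested, and 1 was called higher in each long-fibre group, P2ry12, an ADP receptor also expressed by microglia and some macrophages (1.11 ± 0.25 and 1.76 ± 0.25, limma adjusted p = 0.0198 and 0.000377). Of all probes, 2.22% in LFA and 3.63% in NTL were called higher. The P2ry12 call in LFA was lost without control replicate 1 or 4 or LFA replicate 2. Itga2b, the platelet integrin αIIb, differed by −0.47 ± 0.87 and −0.24 ± 0.87 (limma adjusted p = 0.76 and 0.905), and Gp9 by −0.71 ± 0.53 and −0.40 ± 0.53 (limma adjusted p = 0.429 and 0.702). The median change of the list was −0.41 in LFA and −0.13 in NTL.

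Mesothelial markers (11 tested), endothelial markers (9), liver markers (8) and lung markers (4 of 7 tested) had no gene called by limma in LFA or NTL, and at an unadjusted p under 0.05 they had 1 mesothelial gene in LFA and 1 lung gene in NTL. Msln, which encodes mesothelin, differed by 0.27 ± 0.34 and −0.38 ± 0.34 (limma adjusted p = 0.654 and 0.556). The liver list had a median change of 2.73 in LFA and 2.52 in NTL but varied by array, and Alb differed by 2.81 ± 2.97 and 3.81 ± 2.97 (limma adjusted p = 0.58 and 0.478). Of 12 skeletal muscle markers, 4 were called lower in LFA (Pygm, Myh7, Acta1 and Ryr1) and 5 in NTL (Pygm, Myh7, Myh1, Tnnt3 and Actn3), where 1.72% and 3.18% of all probes were called lower. Pygm, muscle glycogen phosphorylase, differed by −1.27 ± 0.33 and −1.30 ± 0.33 (limma adjusted p = 0.0371 and 0.0218) and Myh7, the slow myosin heavy chain, by −1.11 ± 0.30 and −1.15 ± 0.30 (limma adjusted p = 0.0414 and 0.0237), while Ckm differed by −1.41 ± 0.47 and −1.43 ± 0.47 (limma adjusted p = 0.0904 and 0.0722). The muscle counts ranged from 0 to 5 in LFA and 2 to 7 in NTL when 1 array was left out. In LFA they were 0 without control replicate 4 or LFA replicate 1 or 2, 1 without control replicate 1, 2 or 3, LFA replicate 4 or NTL replicate 1, and 2 without SFA replicate 3, LFA replicate 3 or NTL replicate 4. In NTL they were 2 without control replicate 2 or NTL replicate 1 and 3 without control replicate 4 or NTL replicate 2 or 4. None of the 11 lists had a gene called by limma in SFA or NTS, where 0 to 2 and 0 to 3 genes of a list had an unadjusted p under 0.05.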

How the data were processed

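Diaphragm RNA of 20 mice was hybridised to 1-colour Agilent 60K mouse arrays. Per the file headers, the deposited scanner output holds background-subtracted intensity per spot from Agilent Feature Extraction 10.7.3.1. A further deposited table holds log2 group means that the authors normalised in GeneSpring, and it served as an alternative. Here log2 intensity minus the array's 75th percentile was used, outlier spots were dropped and spots of a probe averaged. A probe was tested when well above background on at least 4 of 20 arrays, in limma 3.58.1 (R 4.3.3) with 1 mean per group over all 20 arrays and Benjamini-Hochberg adjustment over all 36931 probes. A gene was represented by its brightest tested probe. For a group not well above background on any array, the floor estimate takes, per array, the higher of the probe's own signal and the dimmest signal among probes well above background. Promoters were searched in Python 3.11.15. The fit was tested on simulated data.

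The 7 genes, and the lists of related genes and cell markers, were chosen with earlier results of these data known. From each list the text names up to 4 genes called in the same direction in LFA and NTL, by the smaller of their changes and set defining genes. Cxcl16, Acta1, Ryr1, Myh1, Tnnt3 and Actn3 were named after their values were seen. Alternatives were quantile normalization, normexp with an offset of 50, no filter and a filter on all arrays, slide and replicate number as blocks, only the groups compared, the average of a gene's probes, the authors' table, leaving out each array, and the methods' test, a 2-fold change with an unequal-variance analysis of variance over the groups. Scan day as a block was added after seeing the data. The files give no counts, so the number of arrays limits the precision, and the labels do not say whether mice of a group shared a cage.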

Additional observations from a re-analysis of the deposited data

Results flagged for a closer look

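Of 90 sets of 4 arrays, 7 (7.78%) held 1 array far from the other 3, by Dixon's test of the gap against the range. Chance gives about 1 in 20 such sets, and 3 of the 7 concerned the 35 sets of the chemokines and Cxcr2. In control, Cxcl1 read −2.05 on replicate 2, above the other control arrays. Its processed intensity there was 71.05, against 67.63 to 82.39 on the others, and that array had the lowest 75th percentile of any array (294). In NTS, Cxcl2 read −4.89 on replicate 3, although no NTS array was well above background for it. In LFA, Cxcl5 read 2.73 on replicate 4, the array that was highest in its group for all 7 genes.

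The other sets were mean log2 signals of marker lists. Platelet and megakaryocyte markers averaged −2.56 on NTL replicate 1, below the other NTL arrays. Macrophage markers averaged 0.56 on SFA replicate 2, below the other SFA arrays. Mesothelial markers averaged 1.80 on LFA replicate 2, below the other LFA arrays, and endothelial markers 1.44 on control replicate 2, below the other control arrays.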

How the results depend on the processing

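The log2 changes of the 7 genes kept to within 1 replicate SD in 1473 of 1491 alternative values, and no called change reversed. The other 18 came from normexp correction, which moved Cxcl2, Cxcl3, Cxcl5 and Cxcr2, and from quantile normalization, which moved Pf4. The causes were not tested. Counts of members called were within 1.5 times in 184 of 210 cases and counts of listed genes in 582 of 660. Members called in LFA against control, NTL against control, LFA against SFA and NTL against NTS were 2, 2, 1 and 3 with normexp correction, 1, 1, 0 and 2 with the filter on all arrays, which leaves 3 of the 7 genes, and 1, 1, 1 and 2 by the methods' test (Cxcl5 in each, with Pf4 in NTL against NTS), which tests all 5 groups at once and so also called Cxcl5, 1 of 7, in SFA. Fitting only the groups compared gave 3 in LFA and 3 in NTL against NTS, and in the latter slide as a block gave 1 and scan day as a block 2. Replicate numbers did not pair the arrays (correlation of deviations of same-numbered arrays −0.68 to 0.69, median −0.09, and 4 of 20 arrays nearest to their own number). The replicate block gave 4 members in LFA, 4 in NTL, 2 in LFA against SFA and 5 in NTL against NTS. The authors' table holds group means, so no count could be made from it. Leaving out 1 array gave 2 to 5 members in LFA, 3 to 5 in NTL, 2 to 3 in LFA against SFA and 2 to 5 in NTL against NTS.

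Counts of listed genes moved as follows, in LFA and NTL against control. Other CXC genes: LFA 0 with slide as a block, with no filter and by the methods' test, and 2 with scan day as a block, normexp, the replicate block, quantile normalization, averaged probes and the filter on all arrays, and NTL 1, 0 and 1 with slide block, scan day block and the methods' test (leaving out 1 array, 0 to 2 and 1 to 4). Inducers: NTL 2 with slide block, scan day block, only the groups compared and the methods' test (2 to 5). CXCR2 signalling and adhesion: LFA 5 with no filter, 5 with the replicate block and 1 with only the groups compared (2 to 10), and NTL 6 with slide block and 6 with scan day block. Neutrophil markers: LFA 2 with normexp and with the filter on all arrays (2 to 4), and NTL 2 with that filter. Platelet markers: LFA 0 with normexp and with only the groups compared (0 to 1). Macrophage markers: LFA 6 with only the groups compared and NTL 9 by the methods' test. Muscle markers, called lower: LFA 0 with slide block, no filter, quantile normalization and only the groups compared, and 1 with the replicate block and the methods' test (0 to 5), and NTL 2 with slide block, 2 with scan day block, 1 with quantile normalization and 0 by the methods' test (2 to 7). Dim probes limit the depth: Cxcl2 and Cxcl3 were well above background on 7 of 20 arrays.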
